A study of Mus musculus with 6 samples.

Results

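The genes described here encode enzymes that hydroxylate, fold and crosslink collagen: the lysyl hydroxylases Plod1, Plod2 and Plod3, the prolyl 4-hydroxylase alpha subunits P4ha1 and P4ha2, the prolyl isomerase Ppib, and the lysyl oxidases Lox, Loxl1, Loxl2 and Loxl3. These 10 genes were chosen by name, and all 10 were among the 31053 mouse genes in the count matrices. The question was whether Plod2 and Ppib moved with the rest of the pathway in wounds treated with engineered dendritic cells (DCs). The study had already reported both genes as upregulated in fibroblasts of the wounds with Ndrg2-knockout DCs.

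Collagen is modified in the endoplasmic reticulum (ER) before it is secreted. Prolyl 4-hydroxylases stabilize the triple helix, lysyl hydroxylases mark the lysines from which crosslinks are built, and Ppib, also called cyclophilin B, isomerizes prolyl bonds as the chains fold and forms complexes with other collagen-modifying enzymes. Outside the cell, lysyl oxidases oxidize lysine and hydroxylysine residues so that neighbouring collagen molecules become crosslinked. Plod2 hydroxylates lysines of the telopeptides, the short non-helical ends of the chains, and is known for its part in the stiff crosslinks of fibrotic tissue. Plod1 and Plod3 act mainly on the helix, and Plod3 also adds sugars to hydroxylysine. P4ha1, P4ha2, Plod2 and Lox are known to be induced by low oxygen.

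The series held 6 single-cell RNA-seq libraries of C57BL/6J wild-type mice, 1 library per condition. Of these, 3 came from full-thickness excisional skin wounds of 6-week-old mice explanted on day 10, treated with hydrogels that carried control DCs, Ndrg2-KO DCs or no cells (blank hydrogel). Each hydrogel, made of pullulan and collagen, received 500000 DCs where cells were given, and 5 female and male mice per group carried 2 wounds each. The labels call the control DCs untreated, whereas the methods of the study describe nucleofection with 3 non-targeting guide RNAs. How mice or wounds were pooled into a library was not given in the sources used here. The other 3 libraries were bone marrow-derived DCs grown with GM-CSF, which were untreated, treated with 1e-06 M vitamin D3 (VD3 DC) for 24 h, or had Ndrg2 knocked out with Cas9 and 3 guide RNAs (Ndrg2-KO DC). The untreated and VD3 DCs had no nucleofection, so that step and the knockout cannot be told apart in the DC comparison. All wounds, including those with blank hydrogels, received the collagen-containing gel.

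The cell limits were at least 300 genes, fewer than 100000 unique molecular identifiers (UMIs) and less than 10% of UMIs from mitochondrial genes. They left 1948 to 5681 cells per wound library and 7257 to 8825 per DC library. Libraries shared at most 19 barcodes, 0.264% or less of the smaller library. Levels are given as counts per 1000000 UMIs (CPM) of the same cells. Ndrg2 had 613 UMIs (4.62 CPM) in untreated, 165 (1.42 CPM) in VD3 and 127 (0.884 CPM) in Ndrg2-KO DCs. Counts of 3′ ends do not read the edited sites. In the DC libraries 5 of 9 DC markers were above 10 CPM, and none of the 10 fibroblast markers was. Summed DC markers were at 1941, 1742 and 728 CPM in untreated, VD3 and Ndrg2-KO DCs, and the DC marker Itgax at 146, 77.8 and 263 CPM. With 1 library per condition there is no test between conditions, and no value here has a replicate check. The 95% intervals in brackets are exact Poisson intervals for a level, exact conditional binomial intervals for a log2 ratio and Clopper-Pearson intervals for a share of cells. They cover counting error only, and not the spread between mice, wounds or libraries.

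In the annotation of GRCm38 (GENCODE M21), Plod2 lay at chr9:92542223-92608428 on the plus strand and Ppib on the same chromosome at chr9:66060222-66066623. Loxl1 was on chromosome 9 as well, at chr9:58287738-58313186 on the minus strand. P4ha1 lay at chr10:59323296-59373304 and Plod3 at chr5:136987019-136996648, both on the plus strand. P4ha2 (chr11:54100095-54131665), Loxl2 (chr14:69609068-69695834) and Loxl3 (chr6:83034173-83052562) were on the plus strand and Plod1 (chr4:147909753-147936767) on the minus strand. The RefSeq promoter table covered 5 of the 10 members, namely Plod1, Plod3, P4ha1, P4ha2 and Ppib. The windows of Ppib and P4ha1 are printed because Ppib carried a difference in the wounds and P4ha1 a difference in the cultured DCs. Each shows the 250 bases before the start site in GRCm38.p6, plus strand, at chr9:66059919-66060168 for Ppib and chr10:59323046-59323295 for P4ha1. Capitals mark the core of the hypoxia response element, ACGTG or GCGTG on either strand, with overlapping matches counted.
Ppib: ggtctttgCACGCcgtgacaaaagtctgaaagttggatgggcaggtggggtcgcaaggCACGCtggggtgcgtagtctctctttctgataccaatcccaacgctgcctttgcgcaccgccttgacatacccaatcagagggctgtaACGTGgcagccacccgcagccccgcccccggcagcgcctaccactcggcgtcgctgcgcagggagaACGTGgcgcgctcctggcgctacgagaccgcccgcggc
P4ha1: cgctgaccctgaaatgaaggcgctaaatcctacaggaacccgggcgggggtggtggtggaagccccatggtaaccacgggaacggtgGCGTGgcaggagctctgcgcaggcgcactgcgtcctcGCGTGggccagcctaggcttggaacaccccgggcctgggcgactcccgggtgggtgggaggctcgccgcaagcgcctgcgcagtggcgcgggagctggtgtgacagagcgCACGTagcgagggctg
The Ppib window held 4 matches and the P4ha1 window 3. P4ha2 also had 3, Plod3 had 4 and Plod1 had 1. Of 27025 windows of this length, 38.6% held at least 1 match and 6.69% held 3 or more. The ER stress response element, searched on both strands, was in none of the 5 windows and in 0.122% of all windows. These letter matches describe the windows and do not show that a factor binds there.

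Wound cells were clustered without the members or the other collagen pathway genes among the variable genes. A cluster of 1324 cells held all 10 fibroblast markers, among them Pdgfra, Dcn and Lum, and is called fibroblast-like. It comprised 481 cells (24.7%) in the control DC wound, 502 (8.84%) in the Ndrg2-KO DC wound and 341 (10.0%) in the blank hydrogel wound. Median depth in these cells was 30446 UMIs, 27065.5 UMIs and 28532 UMIs, respectively.

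Some members were read almost wholly in fibroblast-like cells, and others were shared with immune cells. Fibroblast-like cells held 97.7 to 99.1% of all Lox UMIs across the 3 wound libraries, 97.9 to 98.9% of Loxl1, 97.1 to 98.3% of Loxl2 and 94.6 to 96.2% of Loxl3. Plod2 (95.1 to 97.5%) and P4ha2 (89.7 to 96.1%) were distributed in the same way. In contrast, fibroblast-like cells held 63.8 to 78.3% of Ppib UMIs, 46.2 to 66.2% of Plod3, 44.4 to 62.0% of Plod1 and 40.0 to 65.1% of P4ha1. For these 4 genes the lower end came from the blank hydrogel wound and the upper end from the control DC wound. Neutrophil-like cells made up 23.9% of cells in the control DC, 51.0% in the Ndrg2-KO DC and 46.1% in the blank hydrogel wound.

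**Figure D1:**
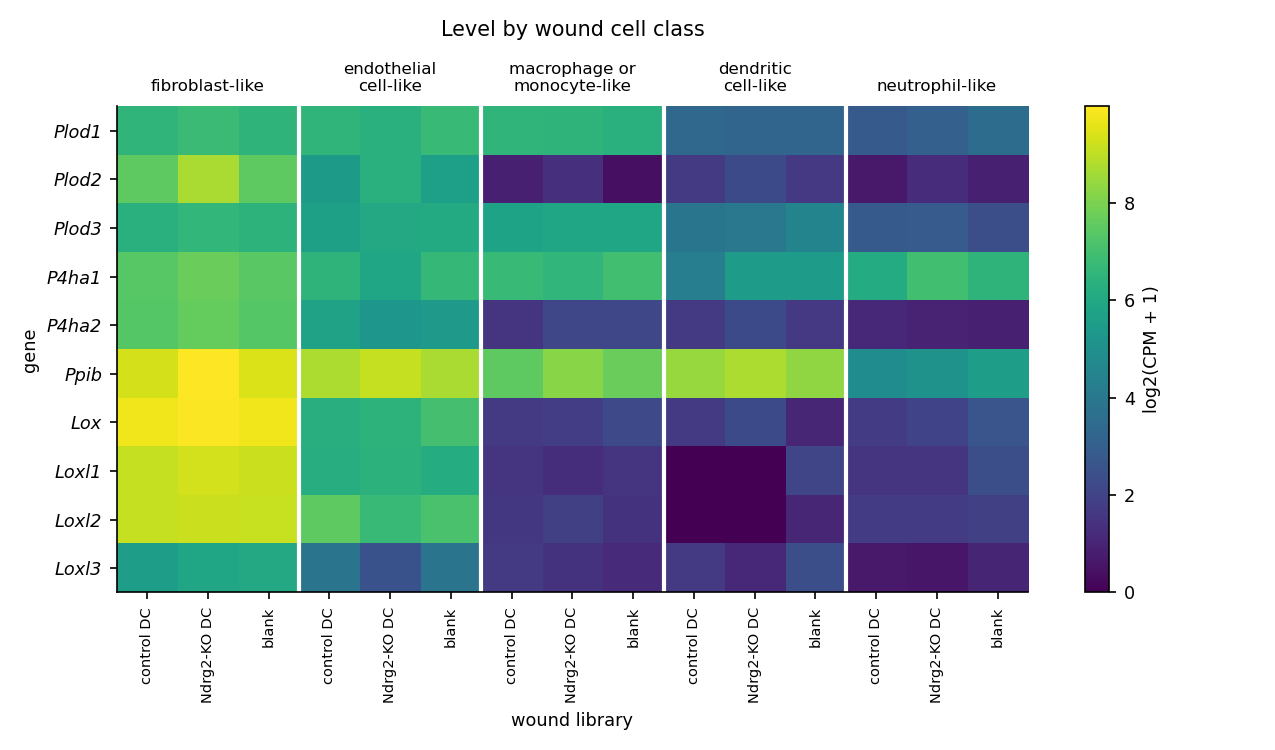
Level of each gene on the log2(CPM + 1) scale (colour) in 5 named wound cell classes, with the 3 wound libraries side by side in each class. Plod2, P4ha2 and the lysyl oxidases are low outside fibroblast-like and endothelial cell-like columns, whereas P4ha1 reaches 122 CPM in neutrophil-like cells and Ppib is present in every class.

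Among lysyl hydroxylases in fibroblast-like cells, Plod2 differed between the wounds and its paralogues differed far less. Plod2 was at 180 CPM [173, 187] in the control DC wound (2796 UMIs), 417 [407, 428] in the Ndrg2-KO DC wound (6048 UMIs) and 183 [175, 191] in the blank hydrogel wound (1989 UMIs). The Ndrg2-KO DC wound stood alone, while the intervals of the control DC and blank hydrogel wounds overlapped. The level was 2.32-fold that of the control DC wound (log2 ratio 1.21 [1.15, 1.28]) and 2.28-fold that of the blank hydrogel wound (1.19 [1.11, 1.26]). Of the genes tested in each comparison, 3.41% and 1.34% had a higher ratio than Plod2. Plod1 was at 90.5, 110 and 90.2 CPM in the same order, a log2 ratio of 0.28 [0.17, 0.38] for Ndrg2-KO DC against control DC. Plod3 was at 79.9, 97.0 and 87.7 CPM, with a log2 ratio of 0.28 [0.17, 0.39].

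Prolyl 4-hydroxylase alpha subunits, which give the enzyme its catalytic site, showed small differences. P4ha1 was at 167 CPM in the control DC, 206 in the Ndrg2-KO DC and 173 in the blank hydrogel wound. P4ha2 was at 162, 197 and 161 CPM. Their log2 ratios for Ndrg2-KO DC against control DC were 0.30 [0.22, 0.38] and 0.28 [0.20, 0.36]. Both genes were highest in the Ndrg2-KO DC wound, and neither reached a 1.5-fold difference.

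Ppib was at 644 CPM [632, 657] in the control DC, 1010 [994, 1027] in the Ndrg2-KO DC and 707 [691, 723] in the blank hydrogel wound. None of these intervals overlapped. The Ndrg2-KO DC level was 1.57-fold [1.53, 1.61] that of the control DC wound and 1.43-fold [1.39, 1.47] that of the blank hydrogel wound. Ratios above that of Ppib were found for 11.7% of genes tested in the former comparison and 7.66% in the latter, so Ppib stood less far out among all genes than Plod2.

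Of the lysyl oxidases, Lox, Loxl1 and Loxl2 differed little across the wounds, and Loxl3 differed more. Lox, the founding member, was at 878 CPM in the control DC wound, 968 in the Ndrg2-KO DC wound and 878 in the blank hydrogel wound. Loxl1, which is required for elastic fibre maintenance, was at 547, 622 and 575 CPM. Loxl2, which crosslinks basement membrane collagen IV, was at 552, 584 and 562 CPM. The log2 ratios of these genes for Ndrg2-KO DC against control DC were 0.14 [0.11, 0.17], 0.18 [0.14, 0.23] and 0.08 [0.04, 0.13]. Loxl3 was lowest in level, at 46.2, 57.4 and 64.1 CPM, and was the member that was highest in the blank hydrogel wound, with a log2 ratio of 0.47 [0.32, 0.63] against the control DC wound. Its log2 ratio for Ndrg2-KO DC against control DC was 0.31 [0.17, 0.46].

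**Figure D2:**
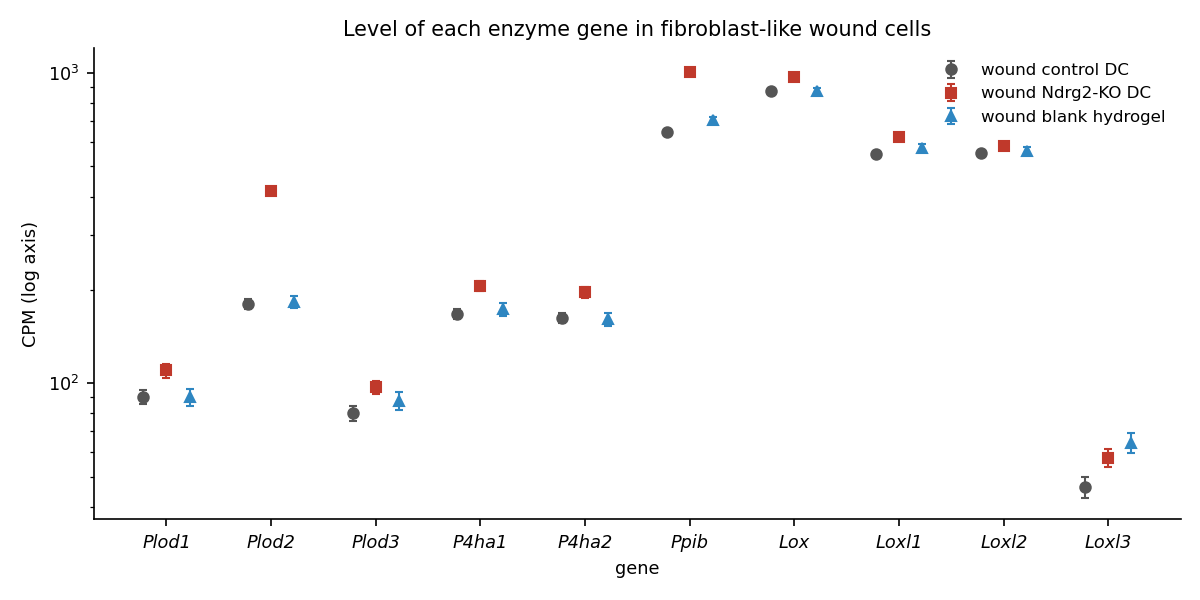
CPM (log axis) of each gene in fibroblast-like cells of the control DC (circles), Ndrg2-KO DC (squares) and blank hydrogel (triangles) wounds, with exact 95% intervals that cover counting error only. Plod2 is at 417 in the Ndrg2-KO DC wound against 180 and 183 in the others, while the points of Lox lie between 878 and 968.

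A member was counted as higher or lower where its level differed at least 1.5-fold between 2 libraries with at least 50 UMIs in both sums together. For Ndrg2-KO DC against control DC, 2 of the 10 members were higher (Plod2 and Ppib) and 0 were lower, beside 14.1% of 11244 genes higher and 4.40% lower. Between blank hydrogel and control DC, 0 members were higher and 0 lower, beside 8.45% of 10970 genes higher and 2.63% lower. Against blank hydrogel, 1 member was higher in the Ndrg2-KO DC wound (Plod2) and 0 were lower, beside 5.96% of 11079 genes higher and 5.10% lower. The share of members past 1.5-fold was therefore near that of all genes, and the comparisons share libraries with each other. The median log2 ratio of all genes tested was 0.11 for Ndrg2-KO DC and 0.11 for blank hydrogel against control DC, and 0.01 between Ndrg2-KO DC and blank hydrogel. When libraries were scaled by the median ratio of genes instead of by total UMIs, which removes that shift, Ppib was no longer past 1.5-fold against control DC and Plod2 was.

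Plod2 stood apart from the other members in both comparisons with the Ndrg2-KO DC wound, and Ppib did so to a smaller extent. The study had named both as upregulated in these libraries, so their excess over the other members is not independent of that choice. The other 8 members had a median log2 ratio of 0.28 for Ndrg2-KO DC against control DC, with a range of 0.08 to 0.31. The intervals of the excess over this median hold the median fixed, and so leave out the counting error of the other members. Plod2 exceeded that median by 0.93 [0.87, 1.0] and Ppib by 0.37 [0.33, 0.41]. Against blank hydrogel, the others had a median of 0.14 (range -0.16 to 0.29), which Plod2 exceeded by 1.05 [0.97, 1.12] and Ppib by 0.37 [0.33, 0.41]. Between blank hydrogel and control DC, the others had a median of 0.04 (range -0.01 to 0.47), from which Plod2 differed by -0.01 [-0.10, 0.07] and Ppib by 0.10 [0.05, 0.14], and the ratios of both (0.02 and 0.13) lay within that range. Without fibroblast subcluster 4, described below, the Plod2 excess over control DC was 0.77 and that of Ppib 0.29.

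**Figure D3:**
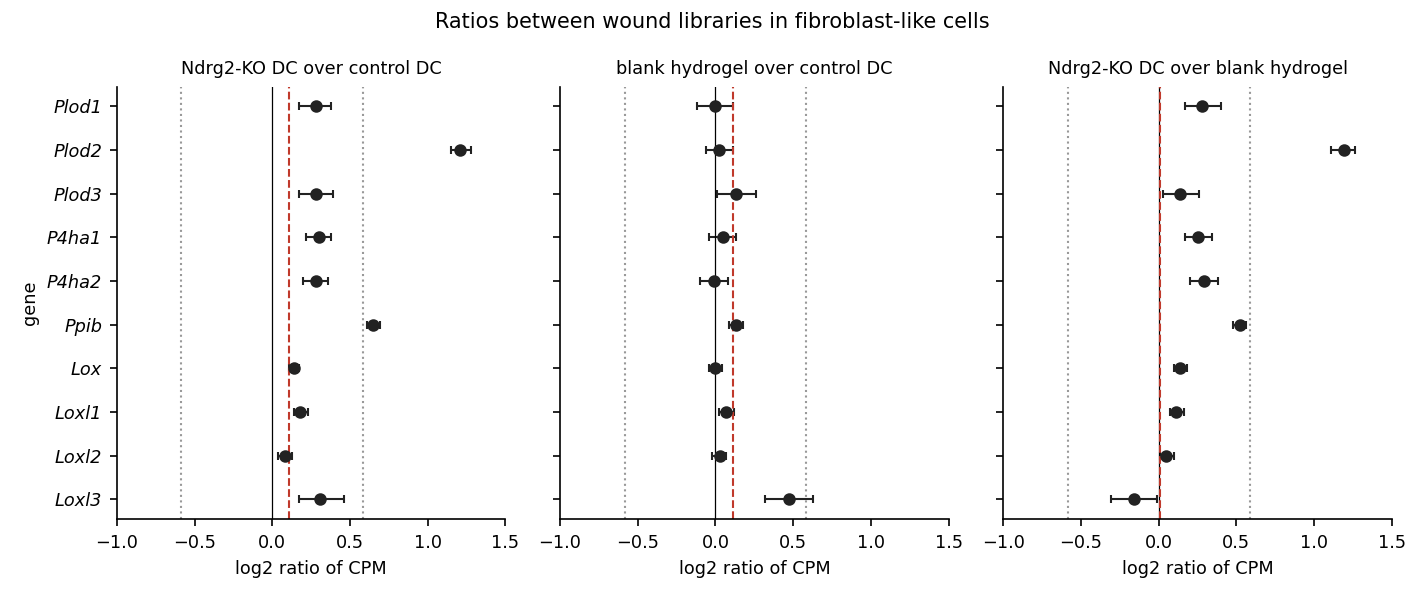
Log2 ratio of CPM in fibroblast-like cells for each gene in 3 comparisons of wound libraries, with exact 95% intervals; the dashed line is the median of all genes tested and the dotted lines mark 1.5-fold. Plod2 lies at 1.21 and 1.19 in the comparisons with the Ndrg2-KO DC wound, where Ppib lies between Plod2 and the other members. Between blank hydrogel and control DC, Plod2 lies at 0.02.

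Markers of other cell types were low in the fibroblast-like cells but not equal across wounds. Summed macrophage or monocyte markers were at 523, 553 and 476 CPM in the control DC, Ndrg2-KO DC and blank hydrogel wounds, and neutrophil markers at 129, 623 and 547. Plod2 itself was at 1.63 CPM or less in macrophage or monocyte-like and neutrophil-like cells of every wound. Their part in the Plod2 and Ppib differences was not tested.

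Fibroblast-like cells were divided further into 8 subclusters, again without the members among the variable genes. Subclusters were drawn from the same cells whose levels are compared, so they describe where UMIs lay. Subcluster 4, led by Pgr, Ptpn5 and Ngfr, held 129 cells of the Ndrg2-KO DC wound, 1 of the control DC wound and 2 of the blank hydrogel wound, and may be that library rather than a type. Subcluster 1, led by Smpd3 and Galnt15, held 134 control DC and 106 blank hydrogel cells but 12 Ndrg2-KO DC cells. Plod2 was at 466 CPM in the Ndrg2-KO DC cells of subcluster 4. In subcluster 1 it was at 74.3 CPM in control DC and 82.9 CPM in blank hydrogel cells, and at 201 CPM [143, 273] in the 12 Ndrg2-KO DC cells, on 40 UMIs.

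The Plod2 difference was also present inside subclusters that both wounds shared. In all 5 subclusters with at least 20 cells in both libraries, Plod2 was higher in the Ndrg2-KO DC than in the control DC wound, with log2 ratios from 0.25 to 2.72, of which 4 were past 1.5-fold. The largest was in subcluster 6, led by Reg3g and Lepr, at 266 against 40.4 CPM, although the control DC level rested on 43 UMIs. The smallest was in the cycling subcluster 5, with Top2a and Mki67 among its leading genes, at 536 against 451 CPM. There the median log2 ratio of all 6512 genes tested was 0.19 and 43.9% of them had a higher ratio than Plod2, so Plod2 did not stand out. In these cycling cells the blank hydrogel wound was at 239 CPM, so that the control DC wound lay nearer to the Ndrg2-KO DC wound. Against blank hydrogel, 5 of 5 shared subclusters were past 1.5-fold for Plod2, with log2 ratios from 0.74 to 1.17.

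Ppib followed the same direction, with smaller sizes except in subcluster 5 against control DC, where it was at 0.34 and Plod2 at 0.25. Ppib log2 ratios for Ndrg2-KO DC against control DC ran from 0.34 to 0.84 in the 5 shared subclusters, 2 of them past 1.5-fold. Against blank hydrogel they ran from 0.10 to 0.86, again with 2 past 1.5-fold. Both lowest ratios were in subcluster 5, where 34.1% and 38.6% of all genes tested, respectively, had a higher ratio than Ppib. Other members also differed in single subclusters. Against control DC, Loxl3 (0.88 [0.11, 1.68]) and Loxl1 (0.77 [0.56, 0.99]) were past 1.5-fold in subcluster 6, beside 0.84 for Ppib, and P4ha2 was past 1.5-fold lower in subcluster 3 (-0.63 [-1.03, -0.25]). In the cycling subcluster 5, Plod3 (0.37) and P4ha2 (0.32) had, like Ppib (0.34), higher ratios than Plod2 (0.25). Against blank hydrogel, P4ha2 was at 0.71 [0.55, 0.88] in subcluster 0, beside 0.74 for Plod2 and 0.65 for Ppib. With each subcluster given the same weight in both libraries, from its cells in all 3 wounds, the Plod2 level was 387 against 218 CPM in the Ndrg2-KO DC and control DC wounds, a log2 ratio of 0.83, and that of Ppib 1062 against 710, a log2 ratio of 0.58. These values leave out subclusters 1, 4 and 7 besides setting the weights, and the part of either step, or of subcluster makeup, in the lower Plod2 ratio was not tested.

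At a common depth, the difference was spread over many cells. After each cell was drawn to 1000 UMIs, 13.9% [11.0, 17.3] of fibroblast-like cells had a Plod2 UMI in the control DC wound, 29.5% [25.5, 33.7] in the Ndrg2-KO DC wound and 16.4% [12.7, 20.8] in the blank hydrogel wound. In neutrophil-like cells, whose median depth before drawing was 2925 to 3357 UMIs, the shares at 1000 UMIs were 0.219%, 0.0700% and 0.0652%. Without drawing, 80.9%, 96.4% and 84.8% of fibroblast-like cells had a Plod2 UMI and 99.4 to 99.8% a Ppib UMI. At 1000 UMIs per cell, Ppib was found in 42.4% [37.9, 47.0], 58.8% [54.3, 63.1] and 43.7% [38.4, 49.1] of fibroblast-like cells, and in 3.22 to 4.83% of neutrophil-like cells. After drawing to 10000 UMIs, which left out 9 cells, 5 cells and 9 cells, the Plod2 share was 59.1% in the control DC, 89.3% in the Ndrg2-KO DC and 67.8% in the blank hydrogel wound. The median fibroblast-like cell then held 1, 3 and 1 Plod2 UMIs and 5, 9 and 6 Ppib UMIs.

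**Figure D4:**
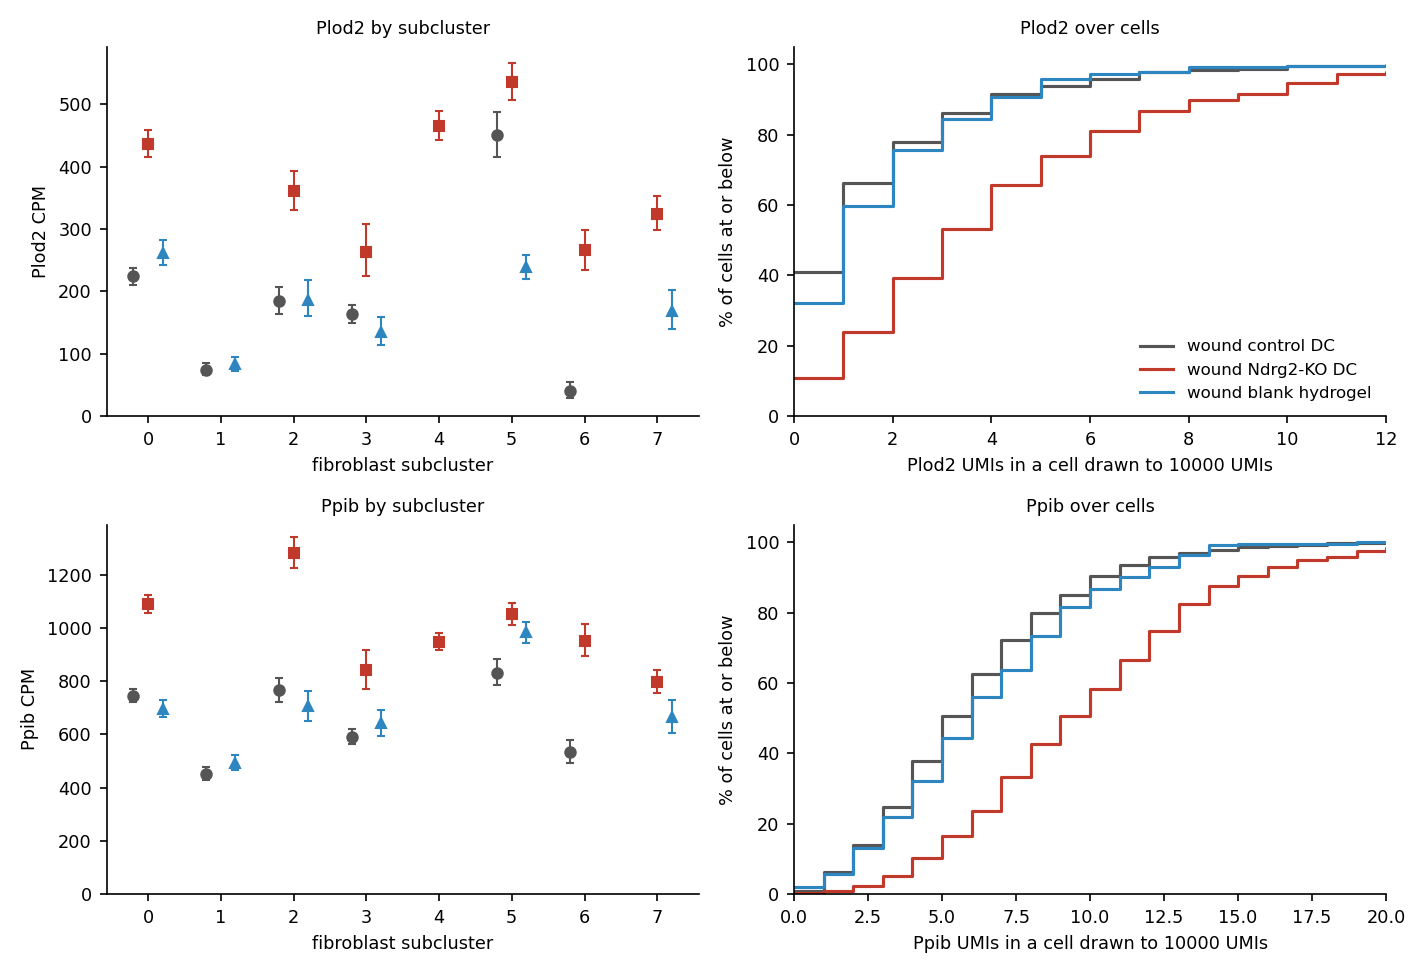
Left, CPM of Plod2 and Ppib in fibroblast subclusters with at least 20 cells in a library, with exact 95% intervals (circles, control DC; squares, Ndrg2-KO DC; triangles, blank hydrogel); right, cumulative percent of fibroblast-like cells at or below a number of UMIs after drawing each cell to 10000 UMIs. The Ndrg2-KO DC curve lies to the right for both genes, with a median of 3 Plod2 UMIs against 1 and 1.

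Outside fibroblast-like cells, Ppib was higher in the Ndrg2-KO DC wound in several classes. In macrophage or monocyte-like cells it was at 179 CPM in the control DC, 292 in the Ndrg2-KO DC and 207 in the blank hydrogel wound, a log2 ratio of 0.71 [0.62, 0.80] against control DC. Summed neutrophil markers in these cells were at 1028, 5200 and 2361 CPM in the same order, while Ppib was at 28.1 to 47.7 CPM in neutrophil-like cells. Their part in the differences of this class was not tested. Its log2 ratio against control DC was 0.64 [0.48, 0.80] in an unnamed cluster led by Mmp12, Mmp13 and Arg1, 0.37 [0.16, 0.59] in endothelial cell-like cells and 0.32 [0.04, 0.61] in dendritic cell-like cells. In neutrophil-like cells the interval included 0 (0.27 [-0.18, 0.75]). In macrophage or monocyte-like cells 2 of 6 members tested were higher in the Ndrg2-KO DC than in the control DC wound (Ppib, and P4ha2 with 44 against 14 UMIs and an interval that included 0, 0.82 [-0.07, 1.80]) and 0 were lower, beside 10.9% of 9738 genes higher and 4.64% lower. Against blank hydrogel 1 of 7 was higher (Loxl2, with 35 against 16 UMIs) and 0 were lower, beside 9.0% of 9814 genes higher and 4.11% lower.

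P4ha1 was also read in leukocytes. In the cluster led by Mmp12 it was at 150, 200 and 174 CPM in the control DC, Ndrg2-KO DC and blank hydrogel wounds, and in fibroblast-like cells, as above, at 167, 206 and 173 CPM. P4ha2 was at 13.2, 29.7 and 16.6 CPM in that cluster, a log2 ratio of 1.17 [0.63, 1.76] against control DC on 235 against 31 UMIs, and Plod1 at 38.7, 60.3 and 58.9 CPM (0.64 [0.31, 0.98]). Plod2 had 0, 50 and 20 UMIs there, or 0, 6.32 and 3.64 CPM. The cluster comprised 160, 674 and 360 cells. In neutrophil-like cells P4ha1 was at 68.9, 122 and 90.1 CPM. Its log2 ratio was 0.82 [0.54, 1.11] for Ndrg2-KO DC against control DC, where the control DC level rested on 113 UMIs. That class joins clusters 0 and 1 in unequal parts, and cluster 1, with Il1a and Ccl3 among its leading genes, held 68 of 465 control DC, 1015 of 2896 Ndrg2-KO DC and 273 of 1568 blank hydrogel cells. P4ha1 was at 62.1, 89.1 and 78.3 CPM in cluster 0 and at 101, 165 and 130 CPM in cluster 1. In endothelial cell-like cells, Plod2 was at 42.1 CPM in the control DC, 80.5 in the Ndrg2-KO DC and 48.7 in the blank hydrogel wound, a log2 ratio of 0.94 [0.30, 1.58] against control DC that rested on 52 against 38 UMIs. Summed fibroblast markers were at 2594, 2437 and 3854 CPM in these cells, against 18989, 16020 and 17147 CPM in fibroblast-like cells. Summed neutrophil markers in the endothelial cell-like cells were at 1126, 6994 and 933 CPM. The part of either in the Plod2 level was not tested.

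Summed over all cells of a library, the members read mostly in fibroblast-like cells looked different. Lox was at 464 CPM in the control DC, 288 in the Ndrg2-KO DC and 280 in the blank hydrogel wound. Loxl2 was at 296, 175 and 180 CPM. Plod2 was at 96.9, 126 and 59.9 CPM. Fibroblast-like cells gave 52.3%, 29.4% and 31.1% of all UMIs in these libraries, and Plod2 was highest in the Ndrg2-KO DC wound. Both the share and the levels of Lox and Loxl2 were highest in the control DC wound, and the part of the share in these levels was not tested.

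Genes around the members in the collagen pathway did not show a common direction. For Ndrg2-KO DC against control DC in fibroblast-like cells, 1 of 18 collagen chains was higher (Col8a1, 0.78 on the log2 scale) and 2 were lower (Col7a1, -1.22, and Col6a2, -0.64), with a list median of -0.25 beside 0.11 for all genes tested, of which 14.1% were higher and 4.40% lower. Of the other collagen-modifying enzymes, 8 of 10 were tested, 0 were higher and 0 lower, and the median was 0.28. Collagen folding and export genes also had 0 of 11 higher and 0 lower, with a median of 0.15. Among the 8 genes of procollagen processing and fibril assembly, Fmod was lower (-2.35, 26 against 142 UMIs). The main fibrillar chain Col1a1 was at 29613 CPM in the control DC and 20943 CPM in the Ndrg2-KO DC wound, a log2 ratio of -0.50, opposite in sign to that of Plod2 and Ppib.

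General ER chaperones and hypoxia-inducible genes are read beside the same 14.1% of all genes higher and 4.40% lower. Of 17 ER chaperone genes, 4 were higher and 0 lower, with a median of 0.39, namely Fkbp2 (0.87), Sdf2l1 (0.82), Sec61b (0.80), a subunit of the protein translocation channel, and Erp29 (0.68). Of 13 hypoxia-inducible genes tested, 6 were higher and 0 lower, with a median of 0.45. The largest log2 ratios were those of Ldha (0.89), Pgk1 (0.80), Ankrd37 (0.80) and Pdk1 (0.73). Ldha and Pgk1 encode glycolytic enzymes. The shares higher of ER chaperones (4 of 17) and of myofibroblast genes (1 of 10) were near that of all genes. TGF-beta and myofibroblast genes had 1 of 10 higher (Acta2, smooth muscle actin, 1.36) and 1 lower (Postn, -1.17), with a median of 0.17.

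Between blank hydrogel and control DC wounds, 0 of 17 ER chaperones and 1 of 13 hypoxia-inducible genes (Egln3, 0.67) were higher and 0 lower in either list, beside 8.45% of all genes higher and 2.63% lower. Collagen chains had 1 higher (Col7a1, 2.11) and 3 lower (Col15a1, Col4a2 and Col4a1), and myofibroblast genes had 3 higher (Acta2, 2.87, Tagln, 2.23, and Ctgf, 1.18) and 1 lower. Between Ndrg2-KO DC and blank hydrogel, 1 ER chaperone (Fkbp2, 0.59) and 3 hypoxia-inducible genes (Ankrd37, 1.05, Adm, 0.83, and Pdk1, 0.60) were higher and 0 lower, beside 5.96% of all genes higher and 5.10% lower. In that comparison 0 of 10 TGF-beta and myofibroblast genes were higher and 4 were lower, with Tagln at -1.67 and Acta2 at -1.52.

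Cultured DCs expressed a different part of the pathway. Ppib was at 405 CPM in untreated, 425 in VD3 and 387 in Ndrg2-KO DCs, and P4ha1, Plod3 and Plod1 followed at 8.35 to 40.8 CPM. Plod2 had 50 UMIs (0.377 CPM) in untreated, 34 (0.292 CPM) in VD3 and 52 (0.362 CPM) in Ndrg2-KO DCs. Neither Plod2 nor Ppib, the members that differed in wound fibroblasts, differed past 1.5-fold between Ndrg2-KO and untreated DCs, with log2 ratios of -0.06 [-0.65, 0.53] and -0.07 [-0.08, -0.05].

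Both prolyl 4-hydroxylase subunits were higher in Ndrg2-KO DCs. P4ha1 was at 17.6 CPM in untreated, 30.1 in VD3 and 40.8 in Ndrg2-KO DCs. The knockout and untreated libraries differed by 1.22 [1.15, 1.29] on the log2 scale, or 2.32-fold. P4ha2 had 20, 28 and 194 UMIs in the same order, an 8.95-fold difference [5.64, 15.0], and was found in 151 of 7969 Ndrg2-KO DCs against 20 of 7257 untreated DCs. Plod1 was at 8.35, 15.9 and 14.9 CPM. Plod3 was at 24.6, 12.1 and 34.8 CPM, lower in VD3 and highest in Ndrg2-KO DCs. These levels are over all kept cells, and the part of the lower summed DC markers of the Ndrg2-KO library in them was not tested.

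Against untreated DCs, 5 of 9 members tested were higher in Ndrg2-KO DCs (P4ha2, Loxl2, P4ha1, Loxl3 and Plod1) and 0 were lower, beside 18.1% of 13329 genes higher and 19.1% lower. In VD3 DCs, 3 of 7 were higher (Loxl2, Plod1 and P4ha1) and 2 were lower (Plod3 and Loxl3), beside 9.72% of 13113 genes higher and 16.0% lower. Loxl2 and Loxl3 were near the detection limit, with 31, 67 and 81 UMIs of Loxl2 and 143, 71 and 333 UMIs of Loxl3 in untreated, VD3 and Ndrg2-KO DCs. In cells under 5% mitochondrial UMIs, 3619 VD3 and 3125 untreated DCs, 0 members were higher in VD3 DCs. In the same setting Lox was lower in Ndrg2-KO DCs, but of the 43 Lox UMIs in all kept untreated DCs, 42 lay in 1 cell, described next.

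The Lox signal of untreated DCs came from a single cell. That cell held 42 of the library's 43 Lox UMIs and all 3 of its Loxl1 UMIs, together with 123 of 123 Col1a2, 86 of 87 Col1a1, 55 of 55 Col3a1, 121 of 122 Dcn and 36 of 46 Serpinh1 UMIs. It had 0 UMIs of the DC marker Itgax and 4 of the leukocyte gene Ptprc among 58539 UMIs. Without it, Lox had 1 UMI in untreated DCs, against 53 UMIs over 45 cells in Ndrg2-KO DCs, with at most 3 in any cell. Lox then joined the members past 1.5-fold, which became 6. Loxl1 had 0 UMIs in 8825 VD3 and in 7969 Ndrg2-KO DCs. At 3 counts, this allows a share of up to 0.0340% and 0.0376% of cells with a Loxl1 UMI, and it does not limit the share of cells expressing the gene.

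Of 14 hypoxia-inducible genes, 3 were higher in Ndrg2-KO than in untreated DCs (Vegfa, 4.54, Ankrd37, 1.84, and Bnip3, 1.35 on the log2 scale) and 2 were lower (Adm, -2.74, and Ndrg1, -1.60), counts near the 18.1% of all genes higher and 19.1% lower in this comparison. The lists that follow are read beside the same shares. Of the other collagen-modifying enzymes, 6 were tested and 3 were higher (Crtap, 0.80, P3h3, 0.77, and P3h2, 0.59), which belong to the prolyl 3-hydroxylase system in which Ppib takes part. Collagen chains had 4 of 9 higher and 3 lower, but the lower ones were Col1a1, Col1a2 and Col3a1, whose untreated UMIs came from the cell described above.

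**Figure D5:**
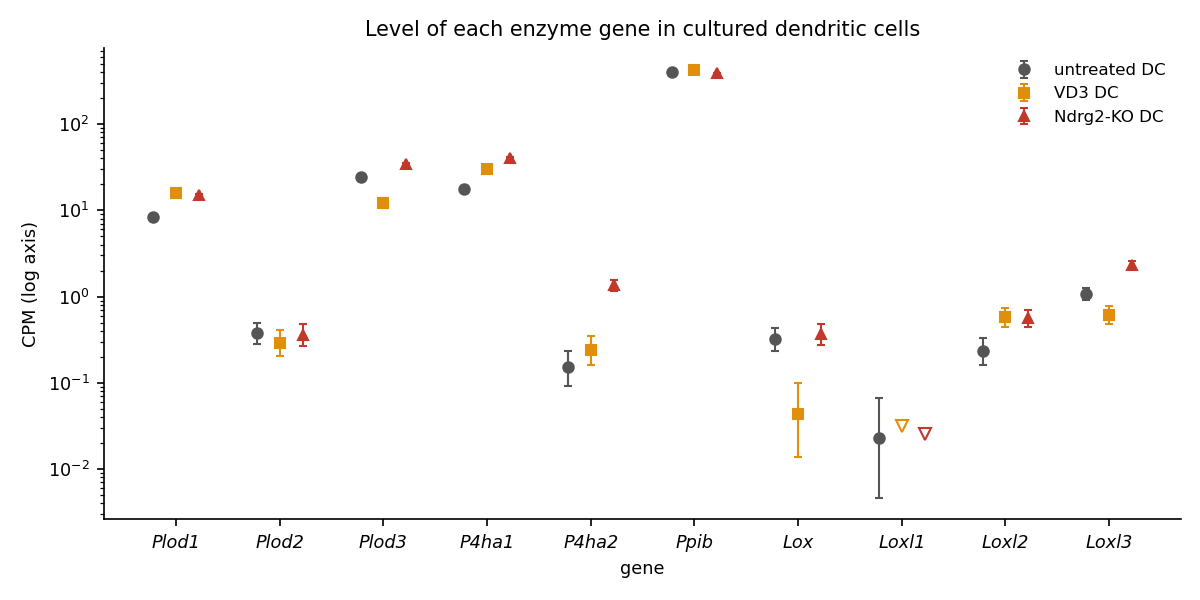
CPM (log axis) of each gene in untreated (circles), VD3 (squares) and Ndrg2-KO (triangles) DCs, with exact 95% intervals; open triangles mark the upper end of the interval where no UMI was counted. Ppib lies between 387 and 425 in all libraries, and P4ha2 is at 1.35 in Ndrg2-KO DCs against 0.151 in untreated DCs.

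The genes most like each member were sought over 31 units, a unit being a wound cluster in 1 library with at least 50 cells, among 9595 genes with at least 500 UMIs, by Pearson correlation of log2(CPM + 1). The units share libraries and differ mainly by cell type, so the values are descriptions. Nearest to Plod2 were Tmem45a (0.941), Rcn1 (0.940), Nckap1 (0.939), Fkbp11 (0.936) and Casc4 (0.935). Among the genes nearest to Ppib were Ssr2 (0.988), Krtcap2 (0.981), Dad1 (0.978) and Slc25a4 (0.969), and nearest to Lox were Lrrc17 (0.981), Bmp1 (0.979), Ntrk2 (0.972), Galnt16 (0.971) and Fbln2 (0.971). P4ha1 had lower values, with Saa3 (0.857), Dram1 (0.845), Cxcl1 (0.816), Fbxo30 (0.810) and Fndc3b (0.809). Among the members, Plod2 was most like Loxl2 (0.920) and least like P4ha1 (0.167), and its value with Ppib was 0.658.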

How the data were processed

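Single cells were measured with 10x Chromium 3′ v3 chemistry in 6 libraries. The authors aligned reads with Cell Ranger (3.1 in the methods; 3.1.0 for DC and 6.0.0 for wound files per the file headers) to mm10 per the methods, while the submitters' processing notes name mm9 and Seurat 3.1.1. The deposited values are raw UMI counts per gene and barcode, not normalized. No per-sample column was left unused.

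Matrices were read with Python 3.11.15, SciPy 1.17.1 and pandas 2.3.3. Barcodes were dropped below 300 genes, from 100000 UMIs upwards or from 10% mitochondrial UMIs upwards. The methods of the study set the lower limit on transcripts, which was run as an alternative. Wound cells were clustered with Seurat 5.3.0 in R 4.3.3 (scale factor 10000, 2000 variable genes, 15 principal components, 15 neighbours, Louvain resolution 0.5), and clusters were named from marker lists. The automatic threshold of Scrublet (scanpy 1.11.5) marked 0 to 0.873% of cells, so doublets were kept and the 6% of highest scores left out as an alternative.

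UMIs were summed per library and class and scaled to counts per 1000000 UMIs (CPM). Levels count 3′ ends and are not divided by gene length. Comparisons took genes whose 2 sums held 50 UMIs or more, and a ratio of at least 1.5 was called. A count of 0 was set to 3 for ratios. Totals were 29675507 to 49240341 UMIs per wound library and 116461484 to 143627482 per DC library, and reads of 1 molecule were already collapsed by the authors. Interval coverage was tested on simulated Poisson counts, which hold no spread between cells, mice or libraries, so it covers counting error only.

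All 10 members are reported. Listed genes past 1.5-fold are named up to 4 a list by size, and the 5 genes most like Plod2, Ppib, Lox and P4ha1 are named, except 1 that is not reported here. Members and lists were chosen with earlier results of these data known. Alternatives changed the cell limits, doublets, scaling, clustering and thresholds. Those without subclusters 4 or 7, at fixed subcluster weights, at 10000 UMIs per cell and without the untreated cell of most Lox were chosen after seeing the data.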

Additional observations from a re-analysis of the deposited data

Results flagged for a closer look

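For Ndrg2-KO DC against control DC wounds, log2 ratios of the members in fibroblast-like cells were set beside those in other classes in 26 pairs of a member and a class. The signs were opposite in 6 pairs, and in 3 of them beyond counting error. Differences between classes were not tested, since each condition had 1 library.

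P4ha1 had a log2 ratio of 0.30 [0.22, 0.38] in fibroblast-like and -0.17 [-0.30, -0.04] in macrophage or monocyte-like cells, a difference of 0.47. In endothelial cell-like cells it was -0.61 [-1.20, -0.04], on 38 against 81 UMIs, which differed from fibroblast-like cells by 0.91. Loxl2 was at 0.08 [0.04, 0.13] in fibroblast-like and -0.80 [-1.23, -0.38] in endothelial cell-like cells, on 68 against 165 UMIs, a difference of 0.88. The endothelial cell-like class held 64 control DC and 76 Ndrg2-KO DC cells with a median of 6670.5 UMIs and 3115 UMIs, and was mixed, with all 5 skeletal muscle markers detected. At a Louvain resolution of 1.0, endothelial cell-like cells were 27 and 18, and a skeletal muscle-like cluster held 36 and 58 cells. Summed neutrophil markers were at 1126 CPM in the control DC and 6994 CPM in the Ndrg2-KO DC cells of that class, and at 1028 and 5200 CPM in macrophage or monocyte-like cells. The part of depth, makeup and these markers in the differences was not tested.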

How the results depend on the processing

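No paired analysis was possible because each group has 1 library. Counts of members past 1.5-fold stayed within 1.5 times the reported count in 122 of 130 alternatives, and no call in the reported fits turned to the other direction. Lox in Ndrg2-KO against untreated DCs, within 1.5-fold as reported, was lower under 5% mitochondrial UMIs and higher both as a mean over cells and without the untreated cell of most Lox.

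For Ndrg2-KO DC against control DC in fibroblast-like cells, the members higher fell to 1 (Plod2) with median-ratio scaling and to 1 at a 2-fold call. The excess of Plod2 over the other members there was 1.11 as a mean over cells, 0.77 without subcluster 4, 0.65 at fixed subcluster weights and 1.11 with cells drawn to 10000 UMIs. That of Ppib was 0.47 as a mean over cells, 0.29 without subcluster 4 and 0.46 with drawn cells. For blank hydrogel against control DC, 1 member (Loxl3) was higher without the cells of highest doublet score, and the Plod2 excess was 0.07 as a mean over cells and 0.11 with drawn cells. Against blank hydrogel, 2 members were higher (Ppib added) as a mean over cells. The Plod2 excess there was 0.82 without subcluster 4 and 0.73 at fixed weights, and that of Ppib 0.43 as a mean over cells and 0.23 without subcluster 4.

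In DCs, VD3 against untreated gave 0 members higher under 5% mitochondrial UMIs, and 1 higher and 1 lower at 2-fold. As a mean over cells, P4ha1 was no longer higher and Plod2 was lower in VD3 DCs. Ndrg2-KO against untreated gave 1 lower (Lox) under 5% mitochondrial UMIs, where 1721 Ndrg2-KO and 3125 untreated cells were left, Loxl2 was no longer higher and Plod3 was higher. Of the 43 Lox UMIs in all kept untreated DCs, 42 lay in 1 cell, and without that cell Lox was higher in Ndrg2-KO DCs. The causes were not tested. All 60 shares of cells with a UMI moved with the depth drawn. A lone library per condition limits all comparisons, and Plod2, P4ha2 and the lysyl oxidases in DCs rest on few UMIs.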
